A study of Mus musculus with 17 samples.

Results

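The comparison set the spleens of mice labelled vehicle, taken as given the transfection carrier without RNA, against the spleens of untreated mice. It used 5 of the 17 libraries of the series: vehicle replicates 1 and 2, and naive replicates 1, 2 and 3. Genes were kept where at least a normalized level of 1 CPM, the authors' read count scaled by library, was reached in 2 or more of these 5 libraries, which left 13256 of 38340 named genes. Levels are CPM, and differences are log2(CPM + 0.5), vehicle minus naive, so a difference of a low gene is understated.

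All mice carried the strain label CB57BL/6NCrl, and the labels give no genotype. The carrier of the series was in vivo-jetPEI, a polyethylenimine polymer that condenses nucleic acid for delivery after injection into a vein. It was taken here to be the vehicle. The other 12 mice of the series received RNA: SLR10 or SLR14 (stem-loop RNAs made to bind RIG-I), poly(I:C) or pppNS, in 3 mice each. The treatment text is shared by every sample, naive included, and describes 25 µg of RNA in 200 µl at an N/P ratio of 8. What the vehicle mice were given, and by which route, is therefore not spelled out in the labels. Sex, age, the time between injection and collection, and the hour of collection are not given in the sources used here. By expression all 5 libraries read as female. Xist, a transcript of female cells, read 337 to 735 CPM in them. The Y-linked genes Ddx3y, Eif2s3y and Kdm5d had 0 reads, and Uty had 3, all in vehicle replicate 2. Replicates were taken as separate mice, and if they were not, p-values measure only the spread between samples.

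The vehicle group is taken as the control that separates the effect of injection and carrier from the effect of an RNA ligand. The spleen filters blood through red pulp rich in macrophages and monocytes, houses B and T cells in white pulp, and in mice also makes red blood cells. Type I interferon, made after receptors such as RIG-I sense foreign RNA, switches on the interferon-stimulated genes through the transcription factor complex ISGF3. Intact tissue was sequenced, so fewer cells of a type and less RNA per cell cannot be told apart.

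The 5 libraries held 26.5 to 42.8 M counted reads (M, mega), of which 18.2 to 29.6 M fell on named genes, and 1 read was worth 0.0175 to 0.0265 CPM. Naive replicate 3 stood apart. Across genes its Pearson r with the other naive libraries was 0.967 and 0.977, against 0.986 between those libraries and 0.990 between the vehicle libraries. It held 11.6% of its named reads in ribosomal protein genes, where the other 4 libraries held 6.26 to 7.94%, and 1891 reads in 25 pancreas genes that missed the level filter, where the others held 14 to 45. Adipose genes also differed between libraries. Those 7 that missed the filter held 19 and 185 reads in vehicle replicates 1 and 2, and 15, 50 and 79 in naive libraries. The 8 that passed had a mean log2 level of 1.69 and 3.29 in vehicle and 1.76, 2.40 and 3.34 in naive libraries. The part of adipose tissue in the results below was not tested. Spleen genes were present in all 5 libraries: Ighm, the IgM heavy chain of B cells, read 2684 to 9840 CPM and Tlx1, a factor of splenic stroma, 15.3 to 27.1 CPM.

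Transcript length moved with the groups. Among 5 equal groups of genes by length, both vehicle libraries lay below all naive libraries in 53.5% of the shortest genes and in 6.0% of the longest. The median difference went from -0.32 in the shortest group to 0.33 in the longest. Against the mean of the 5 libraries, naive replicate 3 went from 0.30 to -0.36 and vehicle replicate 2 from -0.23 to 0.25, so libraries within a group differed too. The part of transcript length in the results below was not tested, and medians of lists are also given after each library's length trend was removed (length-corrected).

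**Figure D1:**
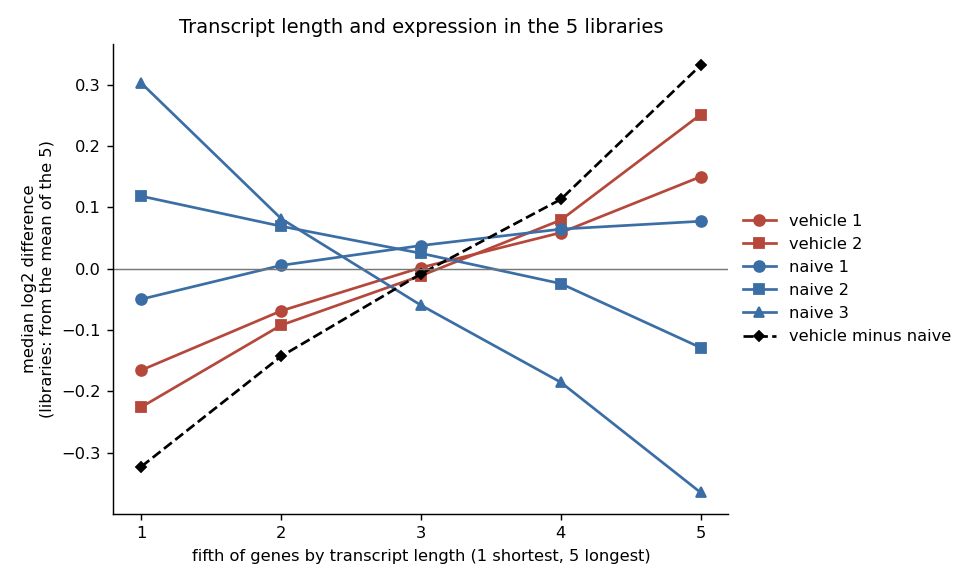
Median log2 difference (y axis) in 5 equal groups of genes ordered by transcript length (x axis), for each library against the mean of the 5 and for vehicle minus naive. Naive replicate 3 falls from 0.30 to -0.36 while vehicle replicate 2 climbs from -0.23 to 0.25.

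Few single genes separated the groups beyond the spread between libraries. With limma's moderated test, fitted over all 17 libraries and Benjamini-Hochberg adjusted over 13256 genes, 7 genes (0.0528%) had an adjusted p under 0.05. Of these, 2 rose in vehicle (0.0151%) and 5 fell (0.0377%). At an unadjusted p under 0.05 there were 856 higher genes (6.46%) and 378 lower genes (2.85%). Both vehicle libraries lay above all naive libraries in 3328 genes (25.1%) and below them in 3735 (28.2%), and counts in gene lists are read against those shares. On the reads recovered from the table, edgeR called 1 gene and DESeq2 called 96.

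Both genes that rose are known from monocytes, endothelium and connective tissue. Cd93, a lectin-like receptor of endothelial, myeloid and early progenitor cells, read 41.7 and 45.5 CPM in vehicle against 21.1, 17.7 and 16.1 CPM in naive libraries. Both vehicle values were about the same and none of the naive values came near them. The difference was 1.24 ± 0.18 (log2, SE) with a limma adjusted p of 0.0222. Vcan, which encodes the matrix proteoglycan versican, had an adjusted p of 0.0222, and its 415 vehicle and 109 naive reads make it a low gene in these spleens.

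The 5 genes that fell came from different cell types. Igha, the constant region of immunoglobulin A heavy chain, read 214.8 and 177.9 CPM in vehicle and 999.9, 693 and 1382 CPM in naive libraries. The groups did not overlap, and the difference was -2.33 ± 0.35 (SE, limma adjusted p 0.0233). Clec4g, a lectin described on sinusoidal endothelium, read 1.68 and 1.87 CPM in vehicle and 9.29, 10.9 and 16.8 CPM in naive libraries, a difference of -2.45 ± 0.32 (SE, limma adjusted p 0.0143). It too had no overlap, and its lowest naive library was several times the higher vehicle one.

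Cyp21a1, steroid 21-hydroxylase of the corticosteroid pathway, read 1.21 and 0.993 CPM in vehicle and 3.65, 5.42 and 5.09 CPM in naive libraries (-1.69 ± 0.25, SE, limma adjusted p 0.0222). Crisp3, a cysteine-rich secretory protein, read 1.4 and 1.03 CPM in vehicle and 3.03, 3.39 and 3.92 CPM in naive libraries (-1.21 ± 0.15, SE, limma adjusted p 0.0143). Both were low in every library, and in both the groups did not overlap. Ear6, a ribonuclease of the eosinophil-associated family, was found in 2 and 4 reads in the vehicle libraries and in 82, 191 and 53 reads in the naive ones (-2.21 ± 0.30, SE, limma adjusted p 0.0148). Its near-identical family members can share reads, so the split between them is uncertain.

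Positions are in GRCm38 with GENCODE vM21 gene models. Cd93 lies at chr2:148436640-148443563 and Igha at chr12:113254830-113260236, both on the minus strand with no overlapping gene. Vcan (chr13:89655312-89742509) overlaps Gm4117 on the other strand, which read 9.69 and 10.98 CPM in vehicle and 9.46, 7.59 and 7.21 CPM in naive libraries, more than Vcan itself. Clec4g (chr8:3707064-3720651) overlaps Gm16553, at 0.105 to 0.342 CPM, and Cyp21a1 (chr17:34801348-34804561) overlaps Tnxa, at 0.0263 to 0.159 CPM. The counting strand is not given in the sources used here, so reads of such pairs cannot be told apart, though both of the last partners were far below the genes they overlap.

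The mice injected with RNA, which are compared with the same naive libraries, are shown beside them for the 7 genes. Igha read 160.2 to 363.4 CPM in those 12 libraries, Clec4g 0.900 to 2.35, Cyp21a1 0.172 to 0.976, Crisp3 0 to 0.7 and Ear6 0 to 0.569. Each of the 12 lay below the lowest naive library for all 5 genes. Vcan read 6.22 to 68.2 CPM there, above both vehicle libraries, whereas Cd93 read 19.9 to 38.2 CPM, below both. The 7 genes were chosen on these naive and vehicle libraries, so nothing is read from the side on which the RNA-injected libraries lie.

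**Figure D2:**
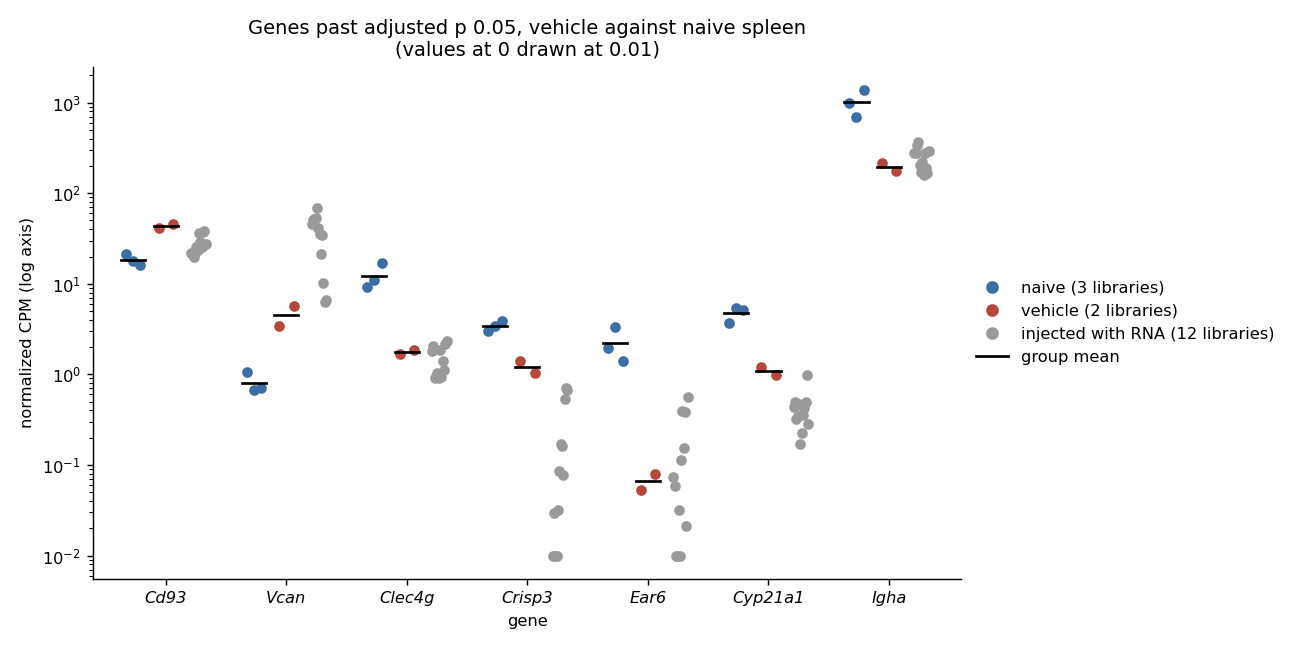
Normalized CPM on a log axis (y) of the 7 genes past the threshold (x), 1 point per library and a line at the naive and vehicle means. For Igha, Clec4g, Crisp3, Ear6 and Cyp21a1 the 3 naive libraries lie above all 14 injected libraries.

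These calls rest on a small number of libraries. Leaving out either vehicle library left 0 genes past the threshold, with 758 and 305 at an unadjusted p under 0.05. Without naive replicate 3, Cd93, Vcan, Cyp21a1 and Igha each had a limma adjusted p of 0.121, and Crisp3, Clec4g and Ear6 stayed past the threshold. With the length trend removed, only Cd93, Clec4g and Igha of the 7 stayed past it, and the others kept differences of 1.35 (Vcan), -1.52 (Cyp21a1), -1.86 (Ear6) and -0.94 (Crisp3).

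Monocyte genes lay on both sides of naive, in shares near those of all genes. Of 30 genes, 10 lay above (33.3%) and 8 below (26.7%), against 25.1% and 28.2% of all genes. The median difference was -0.08 (0.03 length-corrected, 0.07 without naive replicate 1). Beside Vcan and Cd93, limma called none. In all, 5 were higher and 3 lower at an unadjusted p under 0.05, edgeR called 1, and DESeq2 called 4 higher and 1 lower. Ccr2, the chemokine receptor by which inflammatory monocytes leave the marrow, read 39 and 45.6 CPM in vehicle and 22.3, 21.6 and 15.6 CPM in naive libraries (1.09 ± 0.22, SE, limma adjusted p 0.137). F13a1, the coagulation factor XIII A chain carried by monocytes and platelets, read 15 and 22.7 CPM against 6.86, 6.60 and 4.08 CPM (1.61 ± 0.31, SE, limma adjusted p 0.117).

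The 3 monocyte genes of highest level were not higher in vehicle. Lyz2, the lysozyme of myeloid cells, read 648 and 853 CPM in vehicle and 1003, 1062 and 1323 CPM in naive libraries (-0.59 ± 0.20, SE, limma adjusted p 0.438). Csf1r, the receptor for the macrophage growth factor, read 204 and 251 CPM against 315, 270 and 268 CPM (-0.32 ± 0.19, SE). The groups did not overlap for either gene. Mpeg1, a pore-forming protein of phagocytes, read 247 and 313 CPM against 297, 224 and 263 CPM (0.10 ± 0.22, SE), with overlap. In mice given RNA, Ccr2 read 2.70 to 12 CPM, below every vehicle and naive library.

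Red pulp macrophage genes had a median of -0.28 over 22 genes (-0.21 length-corrected, -0.26 without naive replicate 3, -0.14 without vehicle replicate 1), with 1 above and 8 below. None passed the threshold in limma, edgeR or DESeq2, and 2 were lower at an unadjusted p under 0.05. Fcna, a ficolin that binds microbial sugars, read 73.4 and 106 CPM in vehicle and 172, 144 and 218 CPM in naive libraries. C1qc, a chain of the complement starter C1q, read 116 and 132 CPM against 176, 199 and 210 CPM. Hmox1, the enzyme that breaks down heme, read 451 and 463 CPM against 446, 310 and 265 CPM, above naive, and Vcam1, an adhesion molecule, read 240 and 321 CPM against 275, 218 and 245 CPM, with overlap.

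Genes of vessels and connective tissue had mostly higher vehicle values. Of 16 smooth muscle genes, 10 lay above and 1 below, against 25.1% and 28.2% of all genes, with a median of 0.47 (0.43 length-corrected, 0.45 without naive replicate 3). No smooth muscle gene passed the threshold in limma or edgeR, 5 were higher at an unadjusted p under 0.05, and DESeq2 called 1. Mcam, an adhesion molecule of pericytes and endothelium, read 19.4 and 20.6 CPM in vehicle and 11.3, 10.5 and 9.30 CPM in naive libraries (0.92 ± 0.15, SE, limma adjusted p 0.0525). That is the gene nearest the threshold in the list, and its groups were well apart. Acta2, smooth muscle actin, read 103 and 116 CPM against 72.9, 59.3 and 76.7 CPM.

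The stromal list had 13 of 28 genes above and 1 below, with a median of 0.30 (0.24 length-corrected, 0.46 without naive replicate 1 and 0.19 without vehicle replicate 2). Vcan, which the list shares, was its 1 call in limma, edgeR and DESeq2. Sparc, a matrix glycoprotein, read 250 and 256 CPM in vehicle and 150, 140 and 147 CPM in naive libraries (0.79 ± 0.26, SE, limma adjusted p 0.438). Tlx1, a homeobox factor that spleen formation needs, read 24.6 and 27.1 CPM against 16.7, 15.3 and 15.8 CPM (0.68 ± 0.21, SE, limma adjusted p 0.367). Replicates agreed closely for both genes. Timp3, an inhibitor of matrix metalloproteinases, read 113 and 139 CPM against 52.8, 36.7 and 38.3 CPM (1.56 ± 0.30, SE, limma adjusted p 0.102).

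In the endothelial list 13 of 30 genes lay above and 3 below, with a median of 0.21 (0.20 length-corrected), and Cd93 was its 1 call in limma, with none in edgeR and 2 in DESeq2. Nos3, endothelial nitric oxide synthase, read 14.8 and 12.1 CPM in vehicle and 7.31, 7.40 and 4.08 CPM in naive libraries (1.08 ± 0.27, SE, limma adjusted p 0.276). Flt1, a receptor for vascular growth factor, read 23.6 and 23.3 CPM against 18.1, 10.6 and 9.83 CPM. Clec4g, the sinusoidal lectin, was not in this list and fell, so vessel-associated genes did not share 1 direction.

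Platelet and megakaryocyte genes had no member below. Of 20 genes, 11 lay above, with a median of 0.27 that became 0.50 with the length trend removed and 0.42 without naive replicate 3. No gene of the list passed in limma, edgeR or DESeq2, and 3 were higher at an unadjusted p under 0.05. Itgb3, the integrin chain that binds fibrinogen, read 44.6 and 44.6 CPM in vehicle and 30.9, 30.3 and 21.6 CPM in naive libraries (0.70 ± 0.21, SE, limma adjusted p 0.375). Ppbp, a platelet chemokine, read 75.0 and 67.9 CPM against 44.9, 39.7 and 52.8 CPM. Thbs1, the granule glycoprotein thrombospondin, read 36.2 and 40.6 CPM against 25.0, 17.7 and 15.6 CPM.

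Plasma cell genes had a negative median but many overlaps. Of 20 genes, 1 lay above, 8 below and 11 overlapped, and the median was -0.67 (-0.36 length-corrected). It was -0.34 without naive replicate 2, -0.35 without vehicle replicate 2 and -0.67 without naive replicate 3. Igha was the 1 call in limma, 7 genes were lower at an unadjusted p under 0.05, edgeR called none and DESeq2 called 2. Ighg3, an IgG heavy chain, read 24.4 and 19.7 CPM in vehicle and 57.9, 157 and 88.1 CPM in naive libraries (-2.06 ± 0.45, SE, limma adjusted p 0.166). Igj, the chain that joins IgA and IgM polymers, read 409 and 216 CPM against 496, 982 and 737 CPM (-1.25 ± 0.36, SE, limma adjusted p 0.337).

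The naive libraries themselves differed in immunoglobulin content. Igkc, the kappa light chain, read 1933 and 1287 CPM in vehicle and 2391, 6184 and 3793 CPM in naive libraries. All immunoglobulin genes together took 1.86 and 1.25% of named reads in vehicle and 2.00, 4.31 and 2.25% in naive libraries. Naive replicate 2 was therefore high in immunoglobulin as a whole, while Igha was highest in naive replicate 3. Tnfrsf17, the survival receptor BCMA of plasma cells, read 1.03 and 0.675 CPM against 1.76, 2.96 and 2.28 CPM. In contrast the 22 B cell genes had a median of 0.01. Of them 6 lay above and 6 below (27.3% each), near the 25.1% and 28.2% of all genes. None passed the threshold in limma, edgeR or DESeq2, and 1 was lower at an unadjusted p under 0.05.

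Erythroid genes had lower vehicle values throughout but with a very wide spread. Of 29 genes, 27 lay below and none above (median -1.51, or -1.35 without naive replicate 3 and -1.53 length-corrected). The list's mean log2 level was 4.26 and 5.002 in vehicle and 6.31, 5.57 and 6.47 in naive libraries. None passed in limma, edgeR or DESeq2, and 1 was lower at an unadjusted p under 0.05. Klf1, the master transcription factor of red cell precursors, read 2.82 and 7.41 CPM in vehicle and 31.7, 21.8 and 42 CPM in naive libraries (-2.61 ± 1.69, SE, limma adjusted p 0.599). The SE is large because the fit pools the spread of all groups, and among the 3 SLR14 mice Klf1 ran from 3.41 to 117 CPM.

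Hbb-bs and most heme synthesis genes also had lower vehicle values. Hbb-bs, an adult beta globin, read 1659 and 1142 CPM in vehicle and 2339, 1789 and 5128 CPM in naive libraries (-1.01 ± 0.99, SE). Alas2, the first enzyme of red cell heme synthesis, read 121 and 136 CPM against 303, 174 and 337 CPM. Of 18 heme synthesis genes, 15 lay below and none above, with a median of -0.97 (-0.85 length-corrected, -0.81 without naive replicate 3), and none passed in limma, edgeR or DESeq2 or had an unadjusted p under 0.05.

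Cell cycle genes, like the erythroid genes, had lower vehicle values. Of 38 genes, 33 lay below and none above, with a median of -0.82 (-0.85 length-corrected, -0.82 without naive replicate 3). None passed in limma, edgeR or DESeq2, and 1 was lower at an unadjusted p under 0.05. Cdt1, which licenses DNA for replication, read 18.3 and 14.0 CPM in vehicle and 31.8, 33.6 and 38.5 CPM in naive libraries (-1.09 ± 0.45, SE, limma adjusted p 0.511). Mki67, the proliferation marker Ki-67, read 84.4 and 142 CPM against 205, 128 and 166 CPM, so its groups overlapped. When the mean level of the erythroid list in each library was added to the fit as a covariate, the cell cycle median was -0.06. The erythroid median was then 0.01, which is fixed in advance because the covariate is built from the same genes. Why the cell cycle median changed was not tested.

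**Figure D3:**
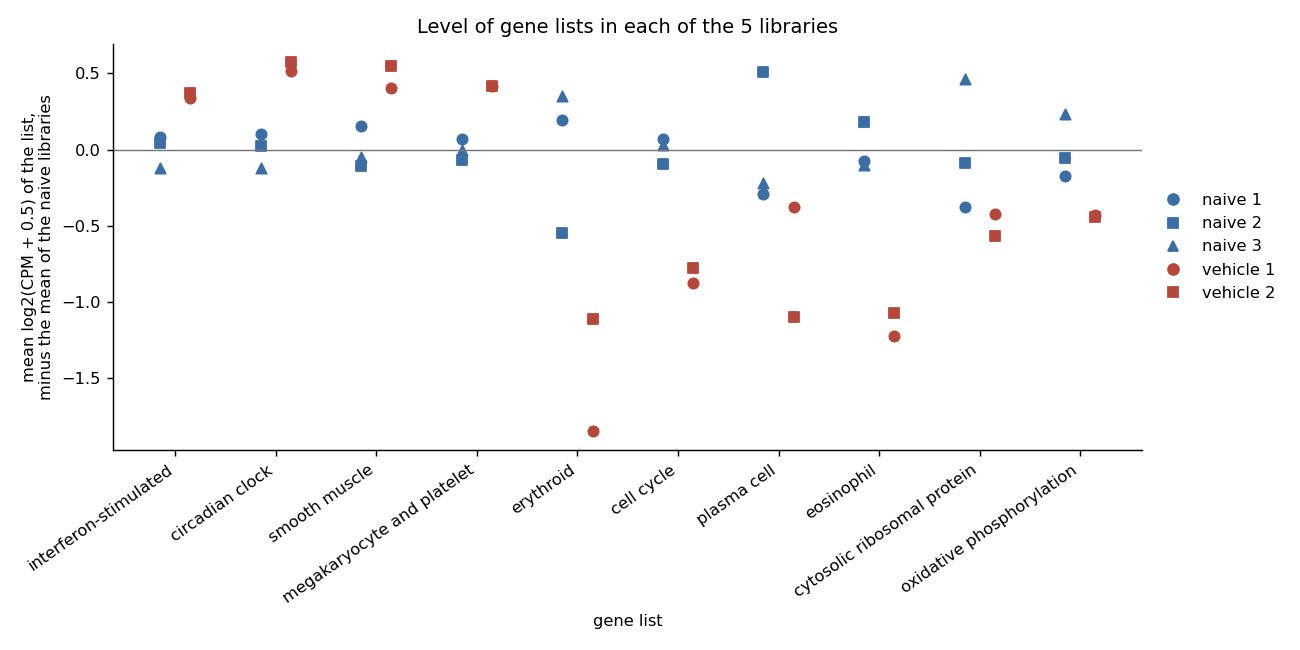
Mean log2(CPM + 0.5) of 10 gene lists (x axis) in each library, minus the mean of the naive libraries (y axis). Both vehicle libraries lie above all naive libraries for interferon-stimulated, circadian clock, smooth muscle and platelet genes, and below them for erythroid, cell cycle, plasma cell, eosinophil, ribosomal and respiratory chain genes.

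Interferon transcripts themselves were near the limit of detection. None of the 17 interferon genes of the table passed the level filter. Their reads summed to 39 and 43 in vehicle and 31, 67 and 28 in naive libraries, and Ifng, interferon gamma of NK and T cells, gave 187 of the 208. Ifnb1, interferon beta, had 0 and 3 reads in vehicle and 0, 1 and 0 in naive libraries. A count of 0 allows up to 0.0790 CPM in vehicle replicate 1 at 3 reads, an interval that covers counting error only.

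Interferon-stimulated genes had higher vehicle values in most, not all, cases. Of 62 genes, 42 lay above and 6 below, against 25.1% and 28.2% of all genes. The median was 0.36 and the quartiles 0.09 and 0.65 (0.43 length-corrected, 0.31 without naive replicate 3). No gene of the list passed in limma, edgeR or DESeq2, while 14 were higher and 1 lower at an unadjusted p under 0.05.

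Mx1, Mx2, Eif2ak2 and Slfn8 had the smallest p-values among the higher genes. Slfn5, named after its values were seen, had the largest positive difference, with 44.3 and 61.6 CPM in vehicle and 28.6, 16.1 and 3.84 CPM in naive libraries (2.04 ± 0.99, SE, limma adjusted p 0.539). The largest negative difference in the list was -1.16. Mx1, a GTPase that blocks influenza virus, read 30.2 and 34.4 CPM in vehicle and 15.5, 13.7 and 10.7 CPM in naive libraries (1.26 ± 0.34, SE, limma adjusted p 0.309). Eif2ak2, the RNA-activated kinase PKR, read 34 and 42 CPM against 26.1, 17 and 12.2 CPM (1.08 ± 0.30, SE, limma adjusted p 0.337). Slfn8, a Schlafen family member, read 59.7 and 67.0 CPM against 39.0, 30.4 and 25.6 CPM (1.01 ± 0.30, SE, limma adjusted p 0.367). In Slfn5, Mx1, Eif2ak2 and Slfn8 vehicle lay above naive, and naive replicate 3 was the lowest library.

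Other genes of the same response differed less. Isg15, the ubiquitin-like modifier, read 20.9 and 22 CPM in vehicle and 26.0, 24.8 and 28.1 CPM in naive libraries (-0.28 ± 0.55, SE, limma adjusted p 0.815). Rsad2, the antiviral enzyme viperin, read 30.5 and 42.5 CPM against 65.3, 35.7 and 49.4 CPM, with overlap, so neither gene had higher vehicle values. Cxcl10, the chemokine that draws activated T cells, read 19.6 and 24.3 CPM against 16.1, 18.6 and 18.3 CPM, and Irf7, the factor that amplifies interferon production, read 76.9 and 69.8 CPM against 61.3, 66.1 and 50.5 CPM, both just above naive. These differences were small beside the range of the RNA-injected mice, in which Isg15 read 233 to 2010.2 CPM, Cxcl10 400 to 3589 CPM and Mx1 251 to 1784 CPM, above every vehicle library.

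**Figure D4:**
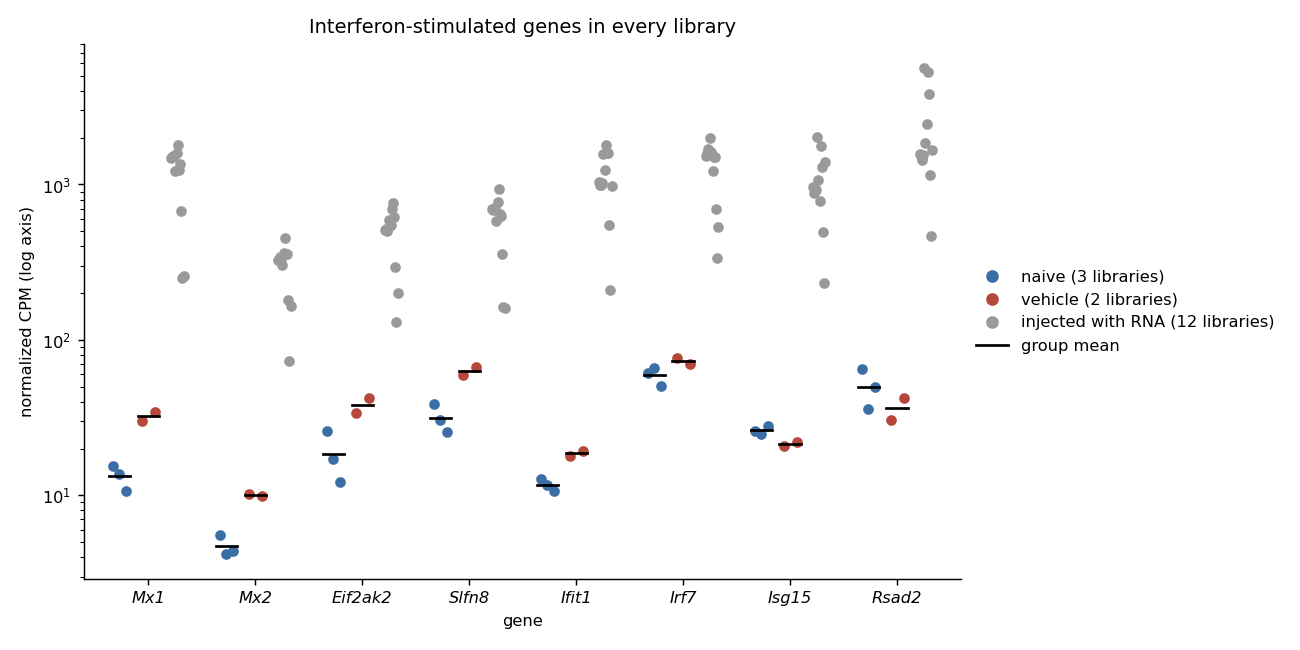
Normalized CPM on a log axis (y) of 8 interferon-stimulated genes (x), 1 point per library with lines at the naive and vehicle means. Vehicle lies above naive for Mx1, Mx2, Eif2ak2, Slfn8, Ifit1 and Irf7 and not for Isg15 or Rsad2, and all 12 RNA-injected libraries lie above both groups for each gene.

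The promoters of these genes were searched for the ISGF3 motif. They are shown for Slfn8, with higher vehicle values, and Isg15, without, from RefSeq on GRCm38.p6, 250 bases before to 50 after the start site, written 5′ to 3′ along the gene. Capitals mark matches to GAAANNGAAA on either strand, where overlapping matches run together. Slfn8 is at chr11:83020761-83021060 and Isg15 at chr4:156200769-156201068, both on the minus strand.
Slfn8: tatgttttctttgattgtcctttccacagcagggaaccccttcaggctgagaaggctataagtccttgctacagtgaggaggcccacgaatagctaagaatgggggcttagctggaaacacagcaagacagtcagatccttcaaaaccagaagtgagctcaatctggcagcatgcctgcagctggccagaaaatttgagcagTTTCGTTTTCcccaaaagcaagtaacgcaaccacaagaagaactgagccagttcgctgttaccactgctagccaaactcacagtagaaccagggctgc
Isg15: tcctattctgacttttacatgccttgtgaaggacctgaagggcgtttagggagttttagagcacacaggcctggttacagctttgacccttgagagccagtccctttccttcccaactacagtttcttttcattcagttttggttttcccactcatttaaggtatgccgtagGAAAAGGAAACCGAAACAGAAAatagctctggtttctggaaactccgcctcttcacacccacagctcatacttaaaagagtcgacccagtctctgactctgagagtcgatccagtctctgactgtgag
Slfn8 held 1 match, read on the opposite strand, and Isg15 held 3 that overlap. Of the 45 interferon-stimulated genes with a promoter in the RefSeq table, 22 held the motif (48.9%), against 3.99% of all 27025 genes with a promoter there. The 22 with a match had a median difference of 0.42, with 13 above and 3 below, and the 23 without a match had a median of 0.32, with 15 above and 1 below. The other 17 genes, Mx1 and Mx2 among them, had no promoter there, with a median of 0.44, 14 above and 2 below. Vehicle values were mostly higher with and without a match. Whether a match goes with the difference was not tested.

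RNA-sensing genes had 13 of 23 above and 1 below, with a median of 0.31 that was 0.11 with the length trend removed and 0.24 without naive replicate 3. None passed in limma, edgeR or DESeq2, and 4 were higher at an unadjusted p under 0.05. Ddx58, which encodes RIG-I, read 87.2 and 93.7 CPM in vehicle and 68.5, 64.9 and 50.01 CPM in naive libraries (0.57 ± 0.25, SE, limma adjusted p 0.523). Trim25, a ubiquitin ligase linked to RIG-I signalling, read 93.7 and 91.5 CPM against 69.4, 68.0 and 65.8 CPM, and its length-corrected difference was 0.21 rather than 0.45. Ifih1, which encodes the long-RNA sensor MDA5, read 23.6 and 26.2 CPM against 22.8, 17.7 and 18.6 CPM.

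Inflammatory mediators lay on both sides of naive. Of the cytokine and NF-kB genes 29.6% lay above and 14.8% below, against 25.1% and 28.2% of all genes. For the chemokine genes the shares were 16.7% and 33.3%. Of 27 cytokine and NF-kB genes, 8 lay above and 4 below with a median of 0.04 (0.18 length-corrected), none past the threshold in limma or edgeR, 2 higher and 2 lower at an unadjusted p under 0.05 and 1 lower in DESeq2. Tnf, tumour necrosis factor, read 9.69 and 9.61 CPM in vehicle and 8.51, 8.55 and 7.82 CPM in naive libraries (0.21 ± 0.24, SE). Of 18 chemokine genes, 3 lay above and 6 below with a median of -0.07 (0.11 length-corrected), none past the threshold in limma or edgeR, 1 higher and 2 lower at an unadjusted p under 0.05 and 1 higher in DESeq2. Ccl2, the ligand of Ccr2, read 1.55 and 2.11 CPM against 0.405, 0.437 and 0.557 CPM (1.26 ± 0.38, SE, limma adjusted p 0.369). Ccl5, a chemokine of cytotoxic cells, read 33.6 and 30.5 CPM against 43.9, 53.9 and 85.4 CPM, so the 2 chemokines lay on opposite sides of naive. Among the cytokine and NF-kB genes Csf1, the macrophage growth factor, read 58.4 and 66.0 CPM against 42.7, 37.4 and 33.1 CPM. Tnfaip2, an NF-kB target, ran lower, at 32.5 and 33.1 CPM against 54.1, 46.2 and 56.3 CPM (-0.66 ± 0.14, SE, limma adjusted p 0.149).

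Circadian clock genes had one of the highest medians among the lists. Of 18 genes that passed the level filter, 12 lay above and none below, with a median of 0.48 (0.47 length-corrected, 0.37 without naive replicate 3). None passed in limma or edgeR, 7 were higher at an unadjusted p under 0.05, and DESeq2 called 2. Npas2, a clock gene that missed the filter, went the other way. It read 0.237 and 0.218 CPM in vehicle and 0.905, 0.910 and 0.530 CPM in naive libraries. Hlf, a PAR-domain factor of clock output, read 3.87 and 4.17 CPM in vehicle and 1.38, 0.98 and 1.43 CPM in naive libraries (1.37 ± 0.24, SE, limma adjusted p 0.0842). Its relatives Dbp and Tef, which bind the same D-box element, read 27.1 and 28.1 CPM against 13.7, 13 and 19.9 CPM, and 41 and 50.05 CPM against 28.4, 23.5 and 24 CPM.

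Several genes of the repressor arm also lay above naive in both vehicle libraries, though Per1 did not. Per3, a period protein, read 12.4 and 16.4 CPM in vehicle and 8.15, 5.76 and 6.49 CPM in naive libraries (1.03 ± 0.26, SE, limma adjusted p 0.294). Ciart, a repressor of CLOCK-BMAL1, read 2.90 and 3.00 CPM against 1.45, 1.68 and 1.33 CPM (0.80 ± 0.26, SE, limma adjusted p 0.438). Per2 and Nr1d1, named after their values were seen, read 10.3 and 11 CPM against 6.05, 5.62 and 4.45 CPM, and 15.2 and 13 CPM against 10.6, 8.05 and 9.81 CPM. The hour of collection was not given, so time of day and treatment cannot be told apart here. In the RNA-injected mice clock genes differed among themselves. Hlf, Dbp and Per3 read 0.117 to 1.89, 3.84 to 12.9 and 2.54 to 7.11 CPM there, all below vehicle, whereas Ciart read 1.26 to 8.64 CPM, with 7 of 12 libraries above both vehicle ones, and Per2 3.34 to 12.8 CPM, with 4 of 12 above.

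The Ciart promoter is shown because it carries the E-box that CLOCK-BMAL1 binds more than once. It lies at chr3:95882179-95882478 on the minus strand (RefSeq, GRCm38.p6), and capitals mark CACGTG, which reads the same on both strands.
Ciart: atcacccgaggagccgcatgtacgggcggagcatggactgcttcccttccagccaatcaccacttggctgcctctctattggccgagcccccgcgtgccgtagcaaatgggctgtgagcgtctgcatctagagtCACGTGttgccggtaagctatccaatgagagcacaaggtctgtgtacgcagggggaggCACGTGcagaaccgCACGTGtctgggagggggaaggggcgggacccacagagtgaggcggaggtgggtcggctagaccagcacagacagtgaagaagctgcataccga
The window held 3 matches. Of 15 clock genes with a promoter in the table, 5 held CACGTG (33.3%), against 8.09% of all genes with a promoter there and 11.7% of the genes tested. The windows of Dbp, Per3 and Hlf held none.

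Glucocorticoid-responsive genes were split, with 37.5% above and 12.5% below, against 25.1% and 28.2% of all genes. Of 24 genes, 9 lay above and 3 below, with a median of 0.31 (0.26 length-corrected, 0.20 without naive replicate 3, 0.20 and 0.21 without vehicle replicate 1 and 2), none past the threshold in limma, edgeR or DESeq2, and 2 higher and 1 lower at an unadjusted p under 0.05. Fkbp5, a chaperone partner of the glucocorticoid receptor, read 43.3 and 38.1 CPM in vehicle and 23.1, 28.1 and 21.7 CPM in naive libraries (0.74 ± 0.29, SE, limma adjusted p 0.502). Mt2, a metal-binding metallothionein, ran the other way, at 3.05 and 2.84 CPM against 6.81, 5.72 and 13.9 CPM (-1.34 ± 0.52, SE, limma adjusted p 0.502). In RNA-injected mice Mt2 read 26.6 to 254 CPM, above every vehicle and naive library.

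Short housekeeping transcripts had lower vehicle values, by an amount that shrank when the length trend was removed. Of 45 ribosomal protein genes of the cytosol, 33 lay below and none above, with a median of -0.51 that was -0.22 with the length trend removed and -0.25 without naive replicate 3. Rplp0, a stalk protein of the large subunit, read 871 and 804 CPM in vehicle and 986, 1201 and 1543 CPM in naive libraries. Of 37 oxidative phosphorylation genes, 32 lay below and none above, with a median of -0.47, or -0.17 length-corrected. Neither list had a gene past the threshold in limma, edgeR or DESeq2, with 1 and 2 lower at an unadjusted p under 0.05.

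Cholesterol synthesis genes were lower with less dependence on length. Of 21 genes, 12 lay below and 1 above, with a median of -0.34 (-0.29 length-corrected, -0.38 without naive replicate 3). None passed in limma, edgeR or DESeq2, and 6 were lower at an unadjusted p under 0.05. Mvk, mevalonate kinase, read 4.32 and 3.08 CPM in vehicle and 5.84, 7.45 and 6.94 CPM in naive libraries (-0.80 ± 0.23, SE, limma adjusted p 0.353), and its groups did not overlap.

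T cell, NK cell and marginal zone B cell lists had negative medians. Over all genes tested, 25.1% lay above and 28.2% below. The share below was 3.3% for T cell, 46.2% for NK and 26.7% for marginal zone B cell genes. Only the NK list thus exceeded the share of all genes below. Of 30 T cell genes 8 lay above and 1 below, with a median of -0.09 (-0.01 length-corrected, 0.07 without naive replicate 2 or vehicle replicate 2), and Il7r, the receptor for interleukin 7, read 70.0 and 65.4 CPM in vehicle and 41.1, 43.8 and 43.5 CPM in naive libraries. NK and cytotoxic genes had 12 of 26 below and 1 above, with a median of -0.31 that was -0.08 length-corrected. Neither list had a gene past the threshold in limma, edgeR or DESeq2, and 1 T cell gene and 1 NK gene were higher and 4 NK genes lower at an unadjusted p under 0.05. Marginal zone B cell genes had 4 of 15 below and 1 above, with a median of -0.10 (-0.22 length-corrected, 0.01 without naive replicate 1), none past the threshold in limma, edgeR or DESeq2 and 2 lower at an unadjusted p under 0.05. Dtx1, a Notch target of these cells, read 94.5 and 73.3 CPM against 134, 140 and 131 CPM (-0.70 ± 0.21, SE, limma adjusted p 0.375).

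**Figure D5:**
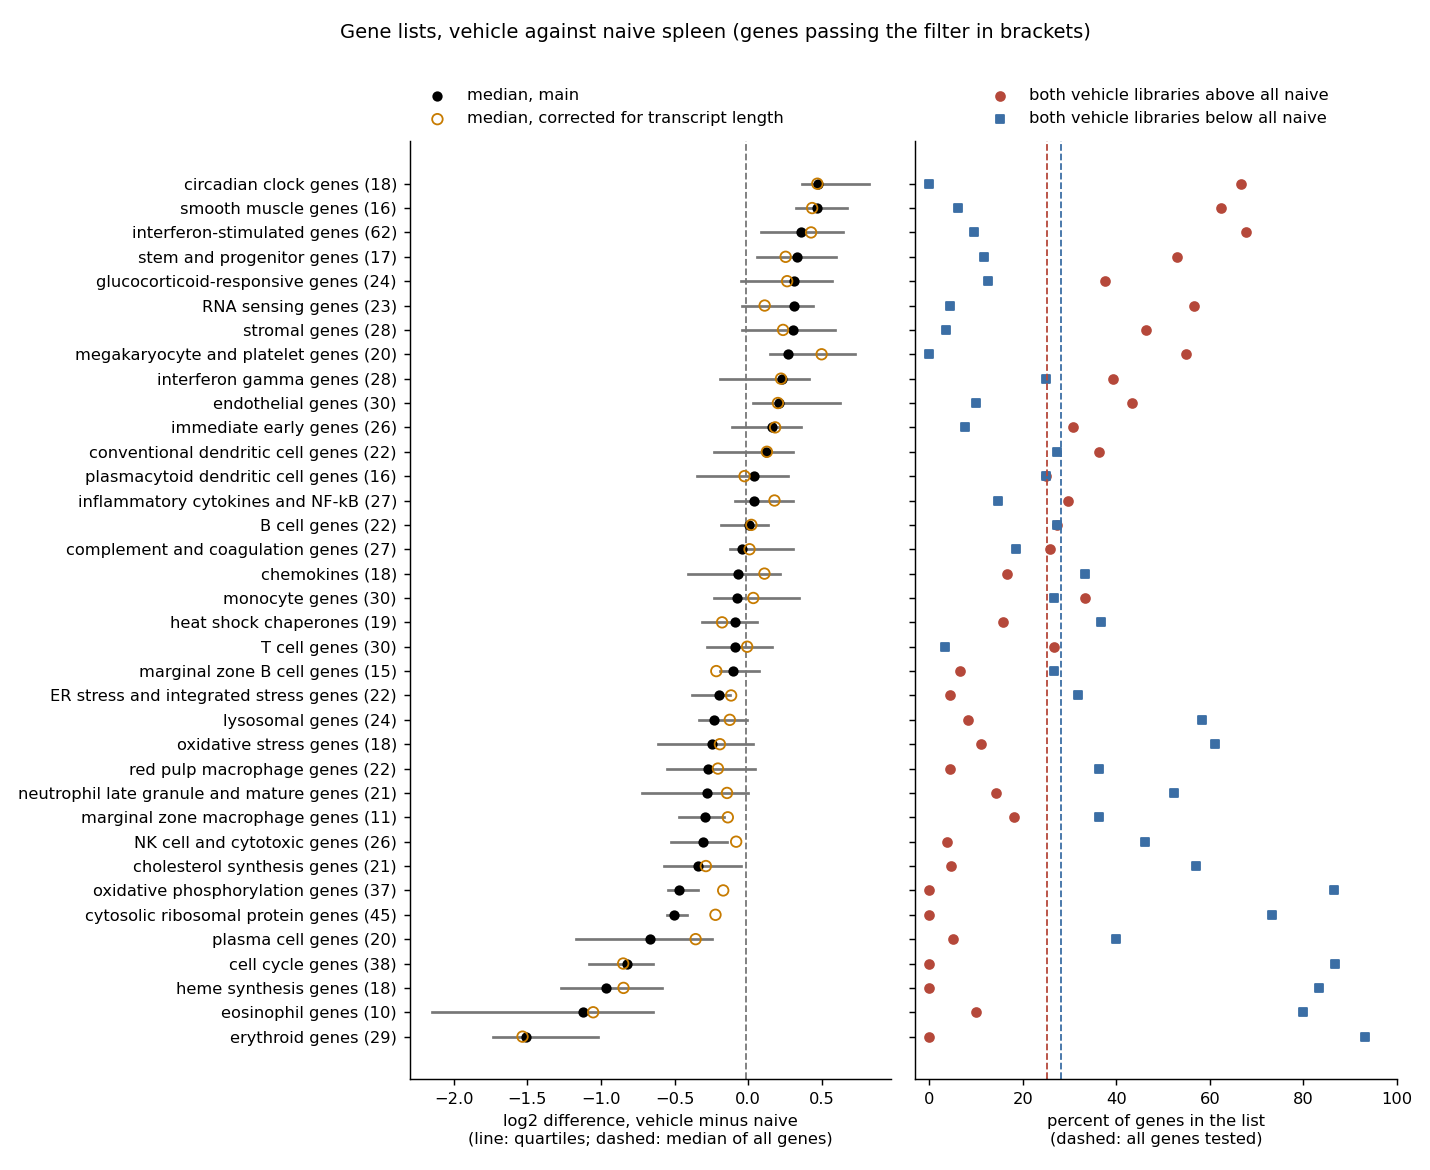
Gene lists (y axis, number of genes in brackets) with their median log2 difference and quartiles (left x axis) and the percent of genes in which both vehicle libraries lie above or below all naive libraries (right x axis), against all genes tested (dashed). Erythroid genes have 93.1% below and none above, and circadian clock genes have 66.7% above and none below.

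Leaving out unnamed gene models and pseudogenes, among genes of at least 5 CPM on average whose groups did not overlap and whose unadjusted p was under 0.05, the 10 largest positive differences belonged to genes whose longest annotated transcripts had 3952 (F13a1) to 11372 bases (Cbl), against a median of 3330 over the tested genes with a length. Cbl, a ubiquitin ligase, read 13.3 and 37.4 CPM in vehicle and 11.4, 4.90 and 1.62 CPM in naive libraries (2.15 ± 0.79, SE, limma adjusted p 0.484). Srcap, a chromatin remodelling ATPase, read 15.3 and 16.8 CPM against 6.79, 3.31 and 2.41 CPM (1.94 ± 0.55, SE, limma adjusted p 0.337). Rel, the NF-kB subunit c-Rel of lymphocytes, read 19.5 and 29.4 CPM against 15.3, 7.89 and 2.36 CPM. Naive replicate 3 was the lowest library for all 3, and without it the difference was 1.51 for Cbl and 1.09 for Rel. Col6a3, a chain of type VI collagen, read 21.9 and 27.1 CPM against 9.15, 7.72 and 5.99 CPM (1.63 ± 0.44, SE, limma adjusted p 0.309).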

How the data were processed

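RNA from whole spleen was made into poly(A)-selected stranded libraries from 500 ng, per the labels' protocols. The authors deposited 1 table of edgeR-normalized CPM values for 17 libraries, treated here as a normalized signal because its columns do not share 1 total (696096 to 748327 in the 5 libraries). FastQC, TopHat2 2.0.6, SAMtools 1.4, HTSeq and edgeR, with GRCm38 and mm10, are named in the submitters' processing notes, and strand setting and annotation release are not given in the sources used here. All values were whole multiples of 1 read within a tolerance of 0.01, so reads were recovered.

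Lines with no usable gene name (5 blank, 699 marked #N/D, 27 turned into dates) stayed out of the tests. The blank ones alone held 28.1 to 31.9% of the reads in the 5 libraries. Of 87 repeated names the line with most reads was kept, which left 38340 genes. log2(CPM + 0.5) was fitted with limma 3.58.1 (R 4.3.3) over all 17 libraries, with no covariate, and p-values were Benjamini-Hochberg adjusted over 13256 genes with a threshold of 0.05. edgeR 4.0.16 (quasi-likelihood) and DESeq2 1.42.0 on the recovered reads were alternatives. Scripts were tested on simulated data.

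Gene lists were matched by symbol and RefSeq synonym. Genes named are those past the threshold, the 10 largest differences each way among non-overlapping genes of at least 5 CPM on average with an unadjusted p under 0.05, up to 4 members of a list with the smallest p and up to 3 with the highest level, and a panel of interferon and cytokine genes. Some such genes are not reported here, and unnamed gene models, pseudogenes and receptor segments were left out. The members and lists were chosen with earlier results of these data known. The length correction, chosen after seeing the data, removed each library's trend with the longest transcript of 13175 genes. Other alternatives were pseudocounts, filters, scalings, library weights, a replicate block, an erythroid covariate and leaving out each replicate.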

Additional observations from a re-analysis of the deposited data

Results flagged for a closer look

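One line of the table that carries no gene name held more of the reads in vehicle than in naive spleens, and none of the comparisons uses it. It took 11.3 and 12.9% of all reads in the vehicle libraries, a mean of 12.08%, and 9.37, 8.43 and 7.33% in the naive libraries, a mean of 8.38%. The groups did not overlap, and the line was picked out because its level exceeds that of every control library. What it counts is not named, so it is not read as a gene. Other unnamed lines went the opposite way. Line 2 held 1.30 and 1.46% in vehicle and 1.80, 2.11 and 1.61% in naive libraries. Line 5 held 18.5 and 17.6% against 20.2, 20.1 and 19.2%.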

How the results depend on the processing

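The count of 7 genes past the threshold (2 higher, 5 lower) depended on the test and the libraries. It was 4 with a pseudocount of 0.1 and 11 with 2, 21 with no filter on low values and 4 with a filter at 5 CPM. Quantile scaling gave 16 (9 higher, 7 lower), and rescaling to named genes gave 6 (1 higher, 5 lower) and moved the median of all genes by 0.11. With only the 5 libraries in the fit there were 0 in limma, with 3368 at an unadjusted p under 0.05 and a smallest adjusted p of 0.0502. Library weights gave 7850, with a weight of 83.6 on naive replicate 2 and a warning from the weight estimate. edgeR gave 1 and DESeq2 96. Leaving out 1 replicate gave 0 to 7: 0 without either vehicle library, 4 without naive replicate 2 or 3 and 7 without naive replicate 1. Those last fits also hold fewer libraries. The cause of these changes was not tested.

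With the replicate block the count was 6, and Vcan had an adjusted p of 0.083. Deviations from the group means had correlations of -0.30 and -0.32 between vehicle and naive libraries of the same number. With 2 vehicle libraries these deviations mirror each other, so the check cannot tell whether the numbers pair mice. The 7 genes kept their direction under all alternatives run. They were chosen on these libraries and their groups did not overlap, so leaving out a library could not turn a sign. Nothing is read from their kept direction. Among the other genes given in the text, the sign turned for Isg15 (0.10 with the erythroid covariate, 0.067 length-corrected), Rsad2 (0.0061 with library weights, 0.015 with the covariate), and, with the covariate, Hba-a1 (0.059), Mki67 (0.56) and Top2a (0.35). Hba-a1 is itself part of the covariate, so nothing is read from its turn. The sign of further genes changed as well. It also turned for Mpeg1 (-0.027 with the covariate, -0.0066 length-corrected, -0.068 to 0.27 with 1 library left out), Vcam1 (-0.027 to 0.39 with 1 left out) and Ear2 (0.086 with library weights, 0.0066 with the replicate block, 0.21 length-corrected, -0.26 to 0.058 with 1 left out). Of 800 list medians under alternatives, 702 moved by less than the SD between libraries. Of 2326 gene values, 2139 kept their direction and side of the threshold, 125 passed it anew and 46 no longer passed. Depth limits the interferon genes, each at under 60 reads a library.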

Other observations

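Eosinophil genes were low in vehicle spleens. The list was drawn up after the values were seen, and Ear6, which is past the threshold, is in it. Of 10 genes that passed the filter, 8 lay below and 1 above, with a median difference of -1.12 (-1.05 length-corrected, -1.53 without naive replicate 3). Limma called 1 lower, edgeR none and DESeq2 3, and 6 were lower and 1 higher at an unadjusted p under 0.05. Prg2, the major basic protein of the granule, read 3.18 and 2.92 CPM in vehicle and 15.3, 32.1 and 19 CPM in naive libraries (-2.60 ± 0.57, SE, limma adjusted p 0.166). Epx, eosinophil peroxidase, read 0.263 and 0.258 CPM against 1.93, 4.37 and 1.75 CPM. Ear1 read 0.079 and 0.238 CPM against 1.83, 3.53 and 2.81 CPM, while Ear2, a related ribonuclease named after its values were seen, read 17.1 and 16.2 CPM against 16.3, 15.6 and 24.7 CPM.

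Other genes among the 10 largest negative differences (5 CPM or more on average, no overlap, unadjusted p under 0.05) are given by value. Pklr, the pyruvate kinase of liver and red cells, read 0.948 and 2.07 CPM in vehicle and 18.4, 11.1 and 16.3 CPM in naive libraries (-3.001 ± 1.23, SE, limma adjusted p 0.507). Asns, asparagine synthetase, read 2.74 and 3.40 CPM against 16.5, 13.3 and 23.6 CPM (-2.33 ± 0.88, SE, limma adjusted p 0.494). Both differed widely among the mice given SLR14, where Pklr ran from 1.49 to 33.6 CPM. Sphk1, which makes sphingosine-1-phosphate, read 2.95 and 3.38 CPM against 12.4, 10.3 and 13 CPM (-1.75 ± 0.35, SE, limma adjusted p 0.117). Of 21 genes of late neutrophil granules and mature neutrophils, 11 lay below and 3 above, with a median of -0.28 (-0.14 length-corrected). In limma and edgeR none passed, 1 was lower in DESeq2, and 3 were lower and 1 higher at an unadjusted p under 0.05. Retnlg, a resistin-like protein of neutrophils, read 5.05 and 4.59 CPM against 14.8, 20.6 and 27.8 CPM, and the neutrophil genes S100a8 and S100a9 read 32.2 and 30.1 CPM against 49.4, 59.4 and 75.5 CPM, and 57.3 and 52.3 CPM against 87.4, 103 and 105 CPM. The higher one was Anxa1, annexin A1, at 36.1 and 38.6 CPM against 28.1, 27.5 and 29.5 CPM. In RNA-injected mice Retnlg and Sphk1 were above both vehicle libraries, at 21.6 to 166 CPM and 11.2 to 36.2 CPM. Of those 12 libraries, 10 and 11 lay above all naive ones, and 0 lay below all naive ones for either gene. Both genes were chosen for low vehicle values, so nothing is read from their place beside vehicle.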
